A study of Mus musculus with 8 samples.

Results

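Egr1, Egr2, Egr3, Ier2, Ier3, Ier5, Nr4a1, Nr4a2, Nr4a3 and Btg2 were followed through the neutrophil RNA-sequencing libraries. They are 10 of the 24421 genes of the count table, found by symbol, and were chosen by what earlier results of these counts showed for Egr1, namely its R848 responses in both genotypes. All belong to the immediate early genes, which are transcribed as soon as a cell is stimulated, without new protein synthesis, because serum response factor (SRF) with its ternary complex partners, CREB and NF-kB are already present and are switched on by kinases such as ERK. Their products are short-lived. Egr and Nr4a genes encode transcription factors, and Btg2 encodes an antiproliferative protein that promotes deadenylation of mRNA. In neutrophils, ligands of Toll-like receptors (TLRs) act through NF-kB and MAP kinases.

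The cells were bone marrow neutrophils of 8-week-old female C57BL/6 mice, either wild type (WT) or Padi4-/- (Padi4 KO), isolated magnetically. Padi4 encodes PAD4, a peptidylarginine deiminase, which makes citrulline out of arginine within proteins, and the KO mice carried a deletion of its exon 1. Each genotype was left unstimulated or given R848, a TLR7 agonist, at 1 µg/ml, with 2 libraries in each of the 4 groups. R848 libraries were from 6 h, and no library was from an earlier time after R848, so early induction was not measured. For unstimulated libraries the sample titles give 0 h and the methods 6 h, so an R848 response may also hold the effect of culture. The sources do not tell whether the libraries of a group were from separate animals, and the spread between them may be technical.

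The targeted gene had 590 and 527 counts in unstimulated WT and 40 and 54 in unstimulated Padi4 KO libraries. With R848, WT libraries held 166 and 234 counts of Padi4, and KO libraries 34 and 21. In KO against WT, its log2 fold change was -4.45 (SE 0.13) without stimulation and -3.92 (SE 0.17) after R848. Library totals on genes lay between 562446 and 1177972 counts. The least taken as detected, 3 counts, was between 2.55 and 5.33 CPM (a count divided by its library total, on a common scale). CPM values of single genes, and their ratios, were further divided by TMM scaling factors of 0.80 to 1.25. These floors cover counting error only. All the 10 genes were among the 12254 tested, but only 6 (Egr1, Ier2, Ier3, Ier5, Nr4a1 and Btg2) had at least 10 counts on average. Of 16 neutrophil markers, 15 were analysed. On library totals, their summed level was between 160550 and 178188 CPM in WT and between 128962 and 139924 CPM in Padi4 KO libraries. Ly6g, a defining marker, was not analysed here.

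The Egr genes encode zinc finger transcription factors. After R848, all 3 were high in WT and close to the detection floor in Padi4 KO neutrophils. Egr1 lies on the plus strand of chromosome 18 of GRCm38 (GENCODE), from 34859823 to 34864984. Unstimulated WT libraries held 18 and 11 counts of it, and WT libraries with R848 86 and 81. In Padi4 KO libraries, it had 33 and 42 counts without stimulation and 7 and 5 counts after R848. The groups did not overlap in CPM within either genotype, and the direction was opposite. Its mean rose from 23.4 ± 6.25 to 159 ± 22.5 CPM in WT and dropped from 33.9 ± 4.83 to 5.41 ± 1.15 CPM in Padi4 KO (SD, n = 2). Fitted log2 fold changes were 2.74 (SE 0.25) in WT and -2.58 (SE 0.37) in Padi4 KO. Egr1 was included because of this pattern, so its values are a description, without a test. In RNA of a whole preparation, fewer cells of a type and less RNA per cell cannot be told apart, here and for every gene that follows.

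Egr2 is on the plus strand of chromosome 10, from 67535475 to 67542188, and Egr3 on the plus strand of chromosome 14, from 70077203 to 70082614. Neither had a count in any of the 4 unstimulated libraries. With R848, the WT libraries held 29 and 22 counts of Egr2 and the Padi4 KO libraries 4 and 2. For Egr3 these were 39 and 34 counts in WT against 3 and 2 in Padi4 KO. Against the floor of 3 counts over the unstimulated group, Egr2 was at least 19.7-fold higher after R848 in WT (adjusted p = 2.59e-15, edgeR's quasi-likelihood test), and Egr3 at least 28.3-fold higher (adjusted p = 2.81e-22, edgeR). These bounds take the WT counts as they are; exact Poisson 95% intervals, which take in the counting error of both groups, began at 15.5-fold for Egr2 and 22.4-fold for Egr3. In Padi4 KO, the intervals began at 1.20-fold for Egr2 and 0.94-fold for Egr3, so that no rise of Egr3 is bounded there by the counts. The model called both in Padi4 KO (adjusted p = 0.0224 for Egr2 and 0.0369 for Egr3, edgeR). These calls rested on 6 and 5 counts, and neither was made when counts were thinned to the smallest library, or without the second unstimulated or the first R848 library of Padi4 KO. DESeq2 called Egr2 (adjusted p = 0.0825) but not Egr3 (adjusted p = 0.111).

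After R848, WT exceeded Padi4 KO for Egr1 by 29.2-fold in CPM. The ratio was 17.8 for Egr2 (exact Poisson 95% interval 7.65 to 50.8) and 30.6 for Egr3 (12.5 to 97.1). The intervals cover counting error only, and they overlapped. In the model, Padi4 KO against WT after R848 gave a log2 fold change of -4.09 (SE 0.49, adjusted p = 5.06e-15) for Egr2 and -4.85 (SE 0.45, adjusted p = 7.28e-25) for Egr3 in edgeR's quasi-likelihood test. For Egr1 the value was -4.83 (SE 0.29), given without a test like its ratio. No difference of response could be estimated for Egr2 and Egr3, since both unstimulated groups were at 0.

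**Figure D1:**
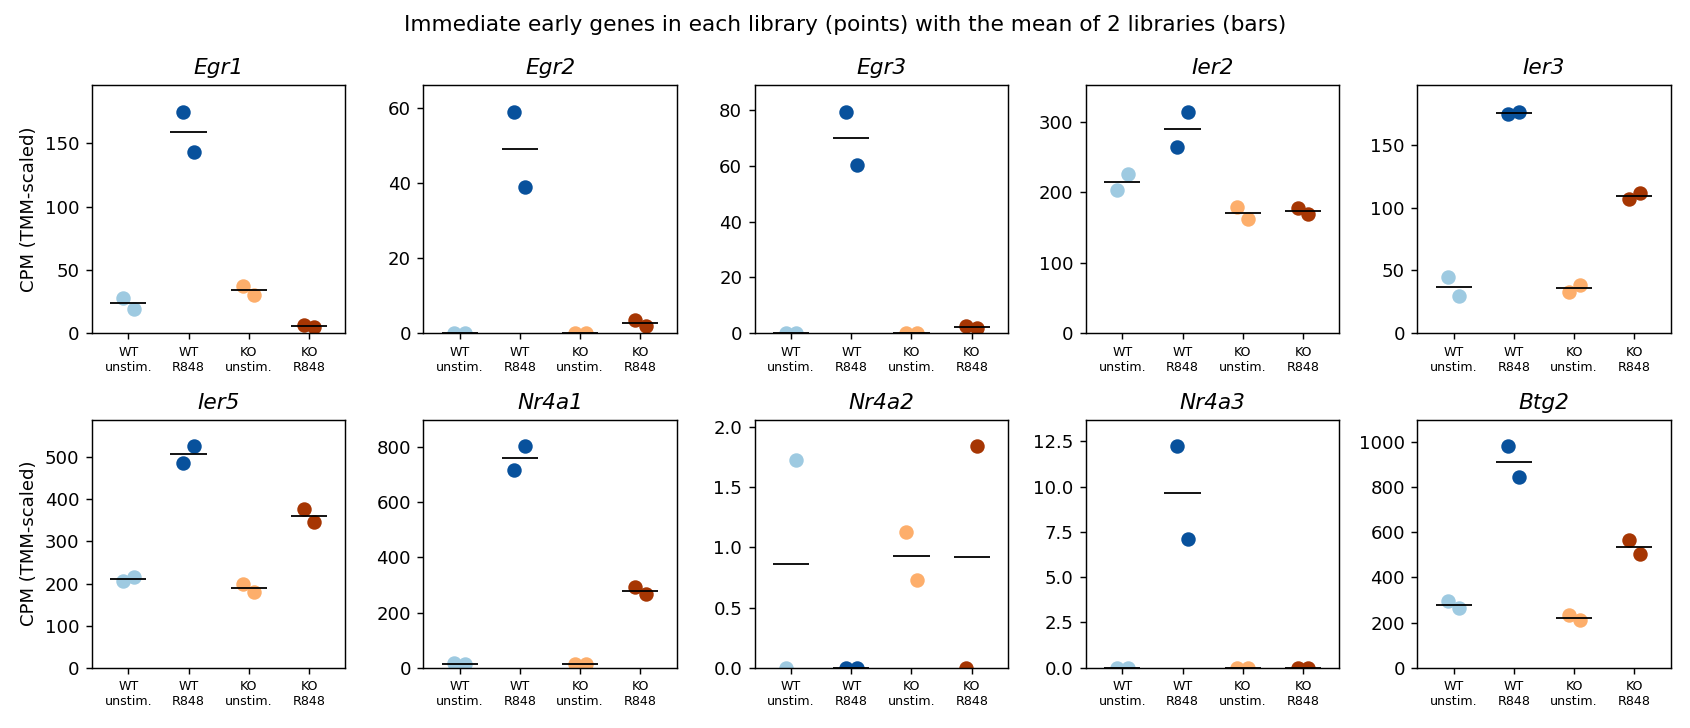
CPM scaled with TMM factors (vertical axes) of the 10 immediate early genes in each library (points) of the 4 groups (horizontal axes), with bars at the mean of 2 libraries; each panel has its own scale. Egr1, Egr2 and Egr3 were high in WT with R848 and close to 0 in Padi4 KO with R848, whereas Ier3, Ier5, Nr4a1 and Btg2 were higher with R848 in both genotypes.

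RefSeq promoter windows were at hand for 7 of the 10 genes, and the 250 bases before each start were searched on both strands for 3 motifs known from immediate early genes. These were TGACG, the half-site of a cAMP response element bound by CREB; the CArG box, bound by SRF; and an NF-kB site. Of all 32817 windows of that length, 17.7% held TGACG, 1.47% a CArG box and 3.90% an NF-kB site. Egr2 had several windows, and the one at the annotated start of the gene held none of the 3 motifs. Upstream of an internal start, inside the annotated gene, a stretch of 30 bases held a CArG box next to a CRE half-site. It lies at chr10:67537793-67537822 on the plus strand of GRCm38.p6, and is shown with both motifs in capitals:
Egr2: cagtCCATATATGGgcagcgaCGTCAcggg
A match is only a match of letters, and no binding was measured.

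The activity of Egr proteins is held in check by corepressors encoded by Nab1 and Nab2. Both rose with R848 in both genotypes and were lower in Padi4 KO than in WT after R848. With R848, Nab2 was counted 13 and 15 times in WT and 8 and 6 times in Padi4 KO libraries, and no unstimulated library held more than 1 count. WT exceeded Padi4 KO by 4.19-fold in CPM (exact Poisson 95% interval 2.14 to 8.62), with an adjusted p of 0.000527 in edgeR. Nab1 had 125 and 103 counts with R848 in WT, and 124 and 132 in the deeper Padi4 KO libraries. Its log2 fold change with R848 was 2.17 (SE 0.20) in WT and 1.37 (SE 0.17) in Padi4 KO, a difference of -0.80 (SE 0.28, adjusted p = 0.0956 in edgeR). That call was lost by DESeq2 (adjusted p = 0.217), with thinned counts (0.327), marker scaling (scaling by summed neutrophil marker counts, 0.117) and no filter beyond 1 count (0.104), and without any 1 of the 4 unstimulated libraries or the first WT library with R848. Over all settings the difference was between -1.26 and -0.69. Egr4, the remaining gene of the Egr family, had 0 counts in all libraries.

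The Nr4a genes encode orphan nuclear receptors. Nr4a1, on the plus strand of chromosome 15 from 101254269 to 101274795, had the largest fitted rise of the members with counts in every group. It had 12 and 7 counts in unstimulated WT and 352 and 453 counts after R848. In Padi4 KO libraries, it had 11 and 17 counts without stimulation and 329 and 290 counts after R848. Every R848 library was above every unstimulated library, and the 2 Padi4 KO libraries with R848 were below the 2 WT libraries in CPM. The mean after R848 was 759.6 ± 59.9 CPM in WT and 279 ± 18.2 CPM in Padi4 KO (SD, n = 2). R848 gave a log2 fold change of 5.61 (SE 0.19, adjusted p = 7.95e-187, edgeR) in WT and 4.48 (SE 0.19, adjusted p = 4.70e-123, edgeR) in Padi4 KO. After R848, Padi4 KO was lower than WT by a log2 fold change of -1.45 (SE 0.098, adjusted p = 2.06e-46, edgeR). The difference between the responses was -1.12 (SE 0.43) and missed the threshold (adjusted p = 0.152, edgeR), with only 7 to 17 counts in the unstimulated libraries.

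Nr4a3 (chromosome 4, plus strand, 48045153 to 48086447) was counted in WT with R848 alone, at 6 and 4 counts. It had 0 counts in the other 6 libraries, so it passed the filter only through the group where it was high, and its calls are no independent test. Set against 3 counts over the other group, its level was at least 3.87-fold higher with R848 in WT and, after R848, at least 6.99-fold higher in WT than in Padi4 KO. The exact Poisson 95% intervals of these ratios, which also take in the counting error of the 10 WT counts, began at 2.60 and 4.70. Without either WT library with R848, Nr4a3 did not pass the filter. Nr4a2 (chromosome 2, minus strand, 57106830 to 57124003) had between 0 and 2 counts in each library, and no change in it was detectable at this depth. The Nr4a1 window at chr15:101266596-101266845, plus strand, is shown because 4 CRE half-sites (capitals, CGTCA being TGACG on the other strand) lay within 250 bases of a start:
Nr4a1: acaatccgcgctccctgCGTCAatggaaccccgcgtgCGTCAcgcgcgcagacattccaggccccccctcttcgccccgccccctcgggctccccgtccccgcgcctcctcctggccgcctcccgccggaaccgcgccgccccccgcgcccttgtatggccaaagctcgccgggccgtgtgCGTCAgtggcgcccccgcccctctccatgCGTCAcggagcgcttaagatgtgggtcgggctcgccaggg
The windows of Nr4a2 and Nr4a3 held 4 half-sites each as well.

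Of the 3 Ier genes, Ier3 and Ier5 were called higher with R848 in WT. Ier3, which encodes a regulator of cell survival, lies on chromosome 17 (plus strand, 35821684 to 35822923), and had 29 and 17 counts in unstimulated WT and 86 and 100 counts after R848. Padi4 KO libraries had 29 and 53 counts of Ier3 without stimulation and 121 and 122 after R848. The R848 libraries were above the unstimulated ones in both genotypes, with means of 176 ± 1.26 CPM in WT and 109.8 ± 3.27 CPM in Padi4 KO after R848 (SD, n = 2). With R848, the log2 fold change was 2.23 (SE 0.22, adjusted p = 8.89e-23, edgeR) in WT and 1.60 (SE 0.18, adjusted p = 3.79e-17, edgeR) in Padi4 KO. Its window, printed up to the annotated start at chr17:35821463-35821683, plus strand, was the only one of the 7 genes with an NF-kB site (capitals), which begins at position -92 from the RefSeq start:
Ier3: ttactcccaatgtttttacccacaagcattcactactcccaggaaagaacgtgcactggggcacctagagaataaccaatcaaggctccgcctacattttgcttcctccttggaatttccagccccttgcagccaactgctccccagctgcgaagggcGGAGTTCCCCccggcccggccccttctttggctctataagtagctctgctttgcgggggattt

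Ier5, on chromosome 1 (minus strand, 155096361 to 155099636), encodes a nuclear protein linked to the heat shock response. It had 133 and 125 counts in unstimulated WT and 239 and 297 counts after R848. In Padi4 KO, it had 175 and 248 counts without stimulation and 423 and 377 counts after R848. The unstimulated and R848 libraries did not overlap in CPM in either genotype. The log2 fold change was 1.27 (SE 0.12, adjusted p = 3.22e-24, edgeR) in WT. In Padi4 KO it was 0.95 (SE 0.10, adjusted p = 3.53e-18, edgeR), just short of the 2-fold change that a call required. Its window held none of the 3 motifs.

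Ier2, on chromosome 8 (minus strand, 84661331 to 84662852), encodes a small nuclear protein and moved least with R848 of the 6 better counted members. Its counts were 132 and 131 in unstimulated WT and 130 and 178 in WT with R848. They were 158 and 223 in unstimulated Padi4 KO and 201 and 185 in Padi4 KO with R848. In WT the mean was 215 ± 15.6 CPM without and 290.0 ± 35.5 CPM with R848, and in Padi4 KO 170.2 ± 11.9 and 174 ± 6.05 CPM (SD, n = 2). The log2 fold change of 0.44 (SE 0.13) in WT passed the false discovery rate (adjusted p = 0.00554, edgeR) but not the 2-fold change. In Padi4 KO it was 0.046 (SE 0.12, adjusted p = 0.820, edgeR), and its sign turned to negative with DESeq2, relative log expression factors, library size alone and marker scaling.

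Btg2, on chromosome 1 (minus strand, 134075170 to 134079120), had 190 and 154 counts in unstimulated WT and 481 and 476 counts after R848. Padi4 KO libraries had 206 and 292 counts without stimulation and 636 and 546 counts after R848. The 4 groups were separate, with WT highest after R848: 911 ± 97.2 CPM, against 533 ± 44.7 CPM in Padi4 KO (SD, n = 2). With R848, the log2 fold change was 1.70 (SE 0.10, adjusted p = 1.97e-57, edgeR) in WT and 1.27 (SE 0.096, adjusted p = 3.34e-38, edgeR) in Padi4 KO. Of the 9 members other than Egr1, Btg2 was the only one called for a difference of response, at -0.42 (SE 0.14, adjusted p = 0.0812, edgeR), and that call was lost without any 1 of the 4 unstimulated libraries. Its window (chr1:134079156-134079405, minus strand) is shown because it held a full CRE, in capitals, whose half-sites overlap:
Btg2: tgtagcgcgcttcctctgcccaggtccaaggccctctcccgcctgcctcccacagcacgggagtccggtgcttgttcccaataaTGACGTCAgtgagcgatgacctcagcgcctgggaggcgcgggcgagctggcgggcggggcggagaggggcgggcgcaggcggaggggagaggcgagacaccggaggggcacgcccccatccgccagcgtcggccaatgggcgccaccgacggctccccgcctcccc

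Relatives of Btg2 in the BTG and TOB family, which share its antiproliferative domain, were not called higher with R848. Tob1 fell in both genotypes, from 58 and 56 counts to 25 and 23 in WT and from 61 and 123 to 38 and 25 in Padi4 KO. Its log2 fold change was -1.03 (SE 0.24) in WT and -1.51 (SE 0.20) in Padi4 KO, both called. The WT value lay at the 2-fold limit, and DESeq2 gave -0.96 there, without a call. Btg1 was the most abundant of them, with 371 to 757 counts, and was not called for a response, at 0.26 in WT and 0.24 in Padi4 KO. Tob2 had 18 to 60 counts and was not called either, at 0.86 and 0.57. Btg3 and Btg4 had 0 counts, and Ier5l, a relative of Ier5, had 1 count in all libraries.

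Levels were set beside each other per kilobase of exon. Without stimulation, Ier2 led in both genotypes, at 141 CPM per kb in WT and 112 in Padi4 KO, followed by Btg2, Ier5 and Ier3. Below them in WT came Egr1, at 5.22 CPM per kb, and Nr4a1, at 4.36, whose libraries overlapped. After R848, Btg2 led, at 332 CPM per kb in WT and 194 in Padi4 KO. In WT, Nr4a1 (216 CPM per kb) and Ier2 (191) came next and overlapped, then Ier3 (156) and Ier5 (155), which also overlapped. Egr1 (35.5 CPM per kb) was below these, and Egr3 (15.8) and Egr2 (14.4) overlapped below Egr1. In Padi4 KO with R848, Ier2 (115 CPM per kb) and Ier5 (110) overlapped, Ier3 (97.1) and Nr4a1 (79.6) each stood alone, and the Egr genes were between 0.51 and 1.21 CPM per kb.

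In the comparison of unstimulated with R848-treated WT neutrophils, 7 of the 9 members other than Egr1 were called higher and none lower, whereas 7.17% of all genes tested were called higher. Leaving out Nr4a3, which passed the filter only through WT with R848, 6 of 8 were called. The exceptions were Ier2 and Nr4a2. In Padi4 KO, 5 of the 9 were called higher (Egr2, Egr3, Ier3, Nr4a1 and Btg2), against 8.07% of all genes. The direct test of the difference of response called 1 of the 9 lower (Btg2), against 1.26% of all genes. That count was 4 with relative log expression factors, 0 with thinned counts and with marker scaling, and 0 to 4 when 1 library was left out. Egr2, Egr3, Nr4a2 and Nr4a3 each had a group at 0, so their differences could not be estimated. Besides Btg2, the differences were -0.39 for Ier2, -0.63 for Ier3, -0.32 for Ier5 and -1.12 for Nr4a1, with adjusted p values between 0.152 and 0.363 in edgeR. For Nr4a2 the fit returned 2.73 (SE 3.21), from no more than 2 counts in a library.

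**Figure D2:**
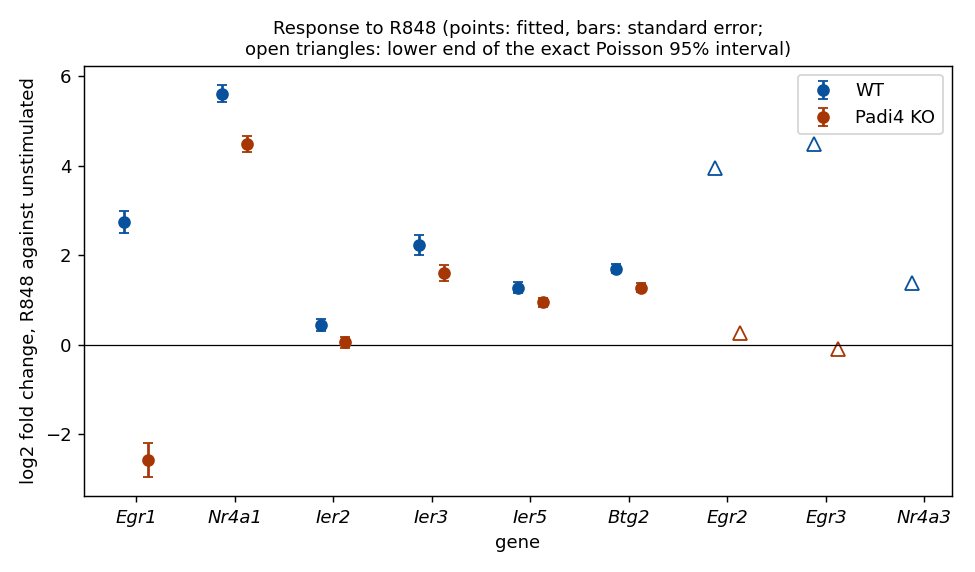
Log2 fold change of R848-treated against unstimulated libraries (vertical axis) for 9 genes in WT (blue) and Padi4 KO (orange); circles are fitted values with SE bars and open triangles are the lower ends of exact Poisson 95% intervals against groups at 0. For the 6 genes with fitted values the Padi4 KO circle lies below the WT circle, from 2.74 against -2.58 for Egr1 to 1.27 against 0.95 for Ier5, and Nr4a3 has a triangle in WT alone.

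After R848, 8 of the 9 members were called lower in Padi4 KO than in WT, against 7.81% of all genes tested; without Nr4a3, which passed the filter only through WT with R848, these were 7 of 8. Beside Egr2, Egr3, Nr4a1 and Nr4a3, these were Ier2 (-0.74, SE 0.13), Ier3 (-0.68, SE 0.15), Ier5 (-0.49, SE 0.10) and Btg2 (-0.77, SE 0.088), with adjusted p values between 3.00e-16 and 0.000193 in edgeR. Over the 5 members other than Egr1 with at least 10 counts, the median log2 fold change was -0.74, and over all genes with at least 10 counts it was -0.0019. Neutrophil markers were also lower in Padi4 KO after R848: 13 of the 15 analysed were called lower, with a median of -0.62. The exceptions were Csf3r (1874 ± 10.8 CPM in WT, 2041 ± 141 in Padi4 KO) and Cxcr2 (835 ± 56.1 and 857 ± 31.4, SD, n = 2). When libraries were scaled by the summed neutrophil marker counts instead of TMM factors, a choice made after these values were seen, 4 of the 8 calls remained. This scaling raised the values of all genes: their median (at least 10 counts) went from -0.0019 to 0.58, with 4883 genes called higher and 115 lower, and the median of the 5 members to -0.16. Egr2 (-3.51), Egr3 (-4.27), Nr4a1 (-0.86) and Nr4a3 stayed lower, and Egr1 was at -4.25. Ier2 (-0.16), Ier3 (-0.10) and Btg2 (-0.18) lost their calls, and Ier5 turned to 0.092.

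**Figure D3:**
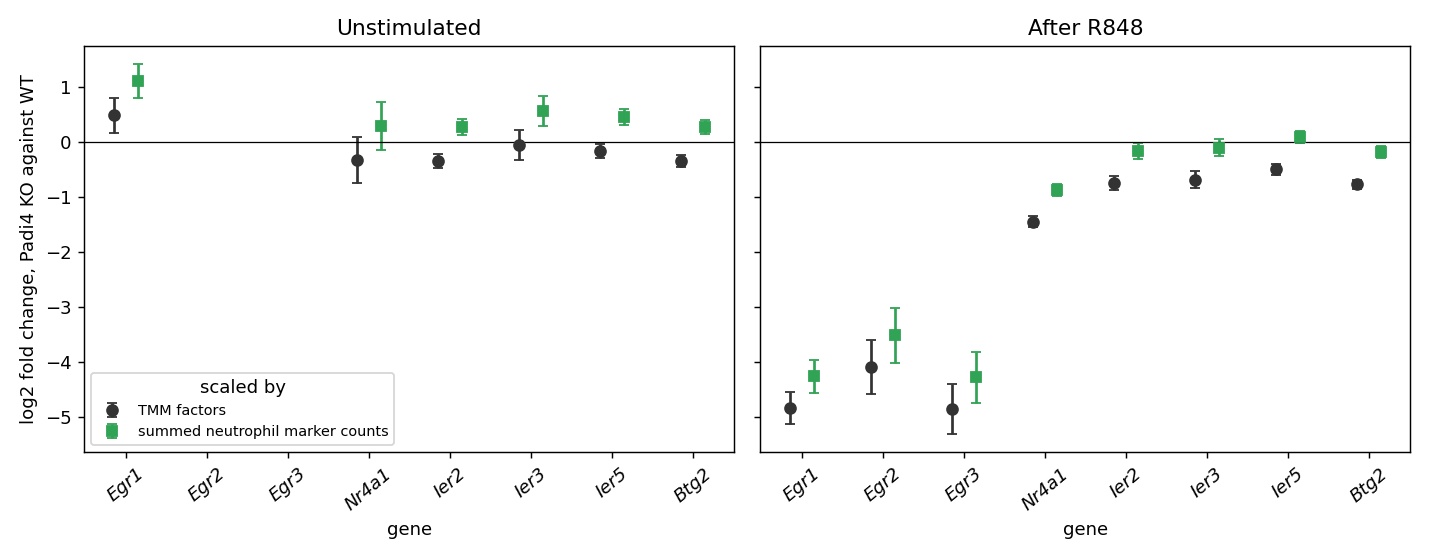
Log2 fold change of Padi4 KO against WT (vertical axis) for 8 genes, unstimulated (left) and after R848 (right), with libraries scaled by TMM factors (black circles) or by summed neutrophil marker counts (green squares); bars are SE, and Egr2 and Egr3 have no unstimulated value because both groups were at 0. After R848, Egr1, Egr2, Egr3 and Nr4a1 lie below 0 under both scalings, whereas Ier2, Ier3 and Btg2 lie near 0 and Ier5 turns to 0.092 under marker scaling, which moved the median of all genes with at least 10 counts from -0.0019 to 0.58.

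Without stimulation, 2 of the 9 members were called lower in Padi4 KO than in WT, against 14.4% of all genes. These were Ier2, at -0.35 (SE 0.13, adjusted p = 0.0418, edgeR), and Btg2, at -0.34 (SE 0.12, adjusted p = 0.0199, edgeR). Under marker scaling they were at 0.27 and 0.28, while the median of all genes with at least 10 counts went from -0.16 to 0.46 (4028 called higher, 105 lower). Neither was called by DESeq2. Neutrophil markers were lower here as well, 14 of 15 with a median of -0.64. Ier3 (-0.051), Ier5 (-0.17) and Nr4a1 (-0.32) were not called. The 2 calls were lost when any 1 of the 4 R848 libraries was left out. Egr1 was at 0.49 (SE 0.31), opposite in direction to its value after R848.

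Markers of other cell types moved with genotype too. Their sums are on library totals, whereas single-gene values and calls use TMM factors, so the scales cannot be set side by side. The erythroid markers summed to between 22.4 and 47.5 CPM in WT and between 1098 and 1114 CPM in Padi4 KO libraries with R848, and 9 of the 9 tested were called higher in Padi4 KO. The globin genes Hbb-bs, Hbb-bt, Hba-a1 and Hba-a2 were at 0 in all libraries. Monocyte and macrophage markers summed to between 3003 and 3102 CPM in WT and between 3104 and 3177 CPM in Padi4 KO after R848, with 4 of 14 higher and 2 lower. Most of the sum was Adgre1. With TMM factors, Adgre1 was at 2443 ± 119 CPM in WT and 1798 ± 84.0 CPM in Padi4 KO with R848. It was at 39.1 ± 1.56 CPM in unstimulated WT (SD, n = 2). Called higher in Padi4 KO after R848 were Ccr2 (27.5 ± 1.40 CPM in WT, 50.7 ± 7.60 in Padi4 KO), F13a1 (53.7 ± 6.73 and 104 ± 5.69), Ms4a6c (66.5 ± 3.93 and 119 ± 11.2) and Csf1r (942 ± 92.7 and 1092 ± 13.4). Adgre1 and Vcam1 (120 ± 2.59 and 48.3 ± 5.87) were lower there. Without stimulation, the summed markers were between 560 and 590 CPM in WT and between 1208 and 1244 CPM in Padi4 KO. Stromal and endothelial markers were at 43.2 and 62.3 CPM, megakaryocyte markers at 15.7 and 38.5 CPM, lymphocyte markers at 18.6 and 19.2 CPM and eosinophil, basophil and mast cell markers at 27.8 and 18.5 CPM, in WT and Padi4 KO with R848. Without stimulation, stromal and endothelial markers were at 244 CPM in WT and 706 in Padi4 KO, and megakaryocyte markers at 94.5 and 190.1. Erythroid markers were at 90.6 and 879 CPM, lymphocyte markers at 42.2 and 26.6 and eosinophil, basophil and mast cell markers at 45.9 and 34.9 in the same order. Stromal and megakaryocyte sums were thus highest in unstimulated Padi4 KO. The part of these cells in the differences of the immediate early genes was not tested.

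Other immediate early genes, 42 of 46 listed and tested, were lower in Padi4 KO after R848 in 22 cases and higher in 0, with a median of -0.57 over 36 genes with at least 10 counts. Of all genes tested, 7.81% were lower and 9.46% higher. Under marker scaling 9 of the 42 were lower and 10 higher, beside 115 and 4883 of all 12254 genes, with a median of 0.020 beside 0.58 over all genes. For the difference of response, 13 were called lower and 3 higher, against 1.26% and 3.45% of all genes. Marker scaling gave 13 and 2 (130 and 232 of all genes), relative log expression factors 13 and 1 (233 and 160), and DESeq2 11 and 0 (90 and 35). The lower ones included the AP-1 subunits Fos (-4.11, SE 0.24), Jun (-2.52, SE 0.25), Junb (-1.02, SE 0.14) and Fosl2 (-0.48, SE 0.14), and Fosb, which had 0 counts in both Padi4 KO libraries with R848. Kinases and kinase-like proteins were Plk3 (-1.34), Trib1 (-1.43) and Pim1 (-0.86); regulators of mRNA decay were Zfp36 (-0.58) and Zfp36l1 (-1.46); and Dusp1 (-0.79), a MAP kinase phosphatase, Klf10 (-1.07), a transcription factor, and Mcl1 (-0.54), a survival protein, completed the group. Gadd45b (1.03), Id2 (0.92) and Sgk1 (1.05) were called higher, and no more than 1 of the higher calls was made when any 1 of the 4 R848 libraries was left out.

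Fos shared the low level of Egr1 in Padi4 KO with R848 but not its rise in WT. WT libraries held 499 and 471 counts of Fos without stimulation, 73 and 80 with R848. Padi4 KO libraries held 1331 and 1948 counts, then 18 and 16. R848 gave a log2 fold change of -2.45 (SE 0.12) in WT and -6.55 (SE 0.14) in Padi4 KO, both called. Fos was called higher in Padi4 KO without stimulation, at 0.88 (SE 0.080, adjusted p = 3.38e-25, edgeR). With R848 in WT, 15 of the 42 other immediate early genes were called higher and 7 lower, and in Padi4 KO 11 higher and 9 lower. Of all genes tested, 7.17% were called higher and 10.8% lower in WT, and 8.07% higher and 8.84% lower in Padi4 KO. Dusp2, a phosphatase of MAP kinases, was called higher in both genotypes, from 1 to 66 counts over the 2 WT libraries and from 5 to 135 over the 2 Padi4 KO libraries, and Per1, a clock gene, fell in both (-2.47 and -3.08).

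**Figure D4:**
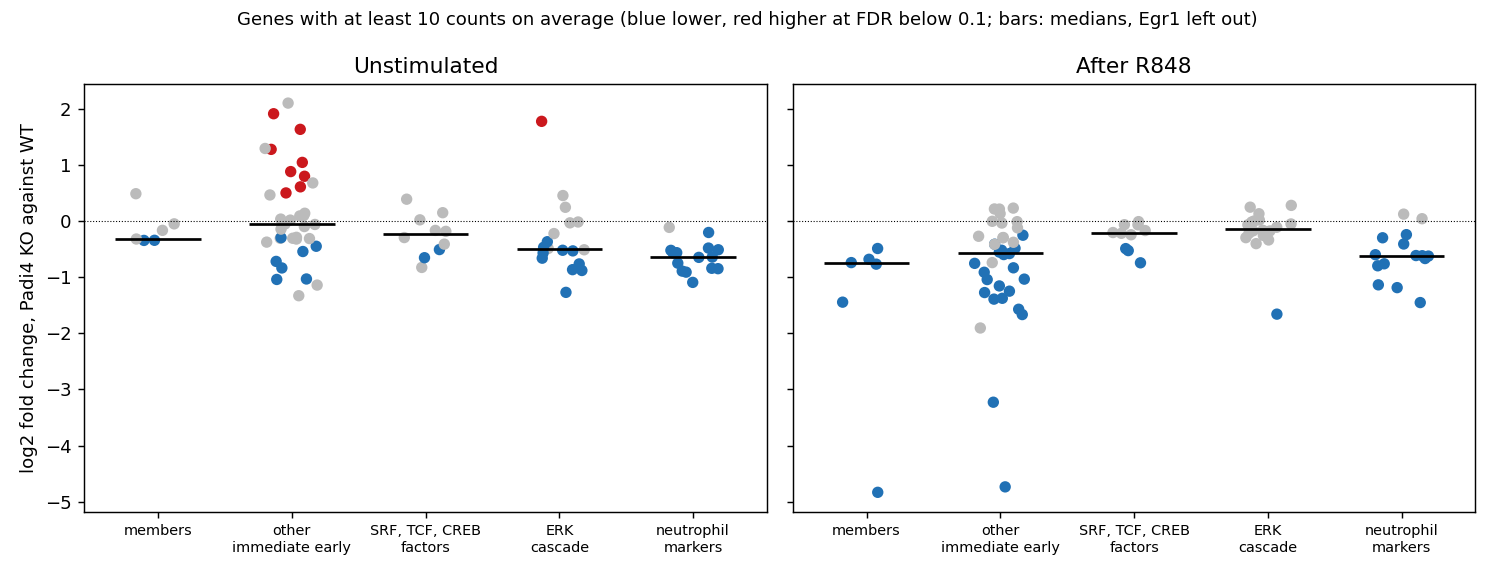
Log2 fold change of Padi4 KO against WT (vertical axis) for single genes (points) of 5 lists, unstimulated (left) and after R848 (right), for genes with at least 10 counts on average; blue points were called lower, red points higher, grey points neither, and bars are medians, with Egr1 plotted but left out of them. After R848, the medians were -0.74 for the 5 members other than Egr1, -0.57 for other immediate early genes and -0.62 for neutrophil markers, and these 5 members were below 0; marker scaling moved Ier5 to 0.092, the median of the other immediate early genes to 0.020 and that of all genes to 0.58.

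Factors and kinases that act upstream of immediate early genes were listed too. Of 15 SRF, ternary complex and CREB factors, 0 were called for a difference of response and 3 were lower in Padi4 KO after R848, with a median of -0.21 over 10 genes; under marker scaling it was 0.37, beside 0.58 over all genes. Srf itself had a log2 fold change with R848 of 0.43 in WT and 0.11 in Padi4 KO, neither called. Crtc2, a coactivator of CREB, rose in both genotypes (1.25 and 1.45), and Mkl1, a coactivator of SRF, fell in WT (-1.32) and was at -0.88 in Padi4 KO, past the false discovery rate but short of a 2-fold change. Of 21 genes of the ERK cascade, 3 were called higher for the difference of response, where 423 of all 12254 genes were: Mapk3 (0.52), which encodes ERK1, and the downstream kinases Rps6ka1 (0.66) and Rps6ka2 (0.65). DESeq2 called 0 of the 21 higher and relative log expression factors 1; 0 or 1 were called without 1 of the R848 libraries, and 1 or 2 without 1 of the unstimulated ones. After R848, 1 of the 21 was lower in Padi4 KO and 0 higher, whereas under marker scaling, which called 4883 of all 12254 genes higher, 1 was lower and 12 higher. Without stimulation, 10 were lower and 1 higher, against 14.4% and 9.55% of all genes, and under marker scaling (105 of all genes lower and 4028 higher) 1 lower and 5 higher. Map3k8, the TLR-activated kinase upstream of ERK, rose by 3.96 in WT and 3.69 in Padi4 KO, with a difference of -0.26 (SE 0.42).

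The genes whose log2 CPM followed Egr1 most closely over the 8 libraries, of 6911 compared, were Nt5e (Pearson's r 0.96, Spearman's rho 0.90), Acvrl1 (0.92, 0.81), Nrros (0.90, 0.76), Sepn1 (0.90, 0.79) and Slfn5 (0.90, 0.83). These values are a description, since the 8 libraries come in 4 groups. Nt5e, which encodes the ectoenzyme CD73, went from 25 and 17 counts to 54 and 68 with R848 in WT, while Padi4 KO libraries held 31 and 46 counts, then 25 and 23. The fitted change was 1.75 in WT and -0.65 in Padi4 KO. Acvrl1, a receptor of the BMP family, moved less, by 0.51 and -0.19. The comparison held 5 of the other 9 members, none of which was among the 5 genes; Egr2, Egr3, Nr4a2 and Nr4a3 averaged fewer than 10 counts and were not compared.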

How the data were processed

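Neutrophil mRNA was sequenced as paired ends on a MiSeq from TruSeq libraries. Per the labels and the paper's methods, the authors trimmed the reads (cutadapt 1.16, FASTX), checked them (FastQC 0.11.7), mapped them to mm10 with STAR 2.5.3a and counted them on genes with HTSeq 0.6.1p1. The deposited values are raw counts per gene symbol, and the annotation and the strand setting are not given in the sources used here. Between 87.0% and 89.5% of the entries of a library were on genes, and the summary lines were left out.

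Members and lists were chosen with earlier results of these data known. In R 4.3.3, the quasi-likelihood model of edgeR 4.0.16 (limma 3.58.1, TMM factors, robust, 1 mean for each of the 4 groups) was fitted to the 8 libraries for 12254 genes with at least 1 count in at least 2 libraries. The biological coefficient of variation was 4.68%. Calls of a response required a false discovery rate below 0.1 (Benjamini-Hochberg over all genes tested) and a change of more than 2-fold; calls in other contrasts, including the difference between the responses, that rate alone. Counts of called members leave out Egr1. Alternatives were DESeq2 1.42.0 (the study used an earlier version), other scalings and filters, thinned counts, separate fits, a replicate block and leaving out each library.

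Named were the members, Padi4, their relatives and corepressors, listed genes called for a difference of response or among the 3 strongest called changes of a list in each response (those with at least 10 counts), and the 5 genes most like Egr1. Results for some single genes under this rule are left out. Duplicates differed by more than counting noise in all groups (chi-square over its degrees of freedom 1.05 to 1.67). Positions are from GENCODE on GRCm38, sequences from RefSeq on GRCm38.p6. Levels per kb use the union of annotated exons.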

Additional observations from a re-analysis of the deposited data

Results flagged for a closer look

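The response of Egr1 to R848 differed between the genotypes by a log2 fold change of -5.32 (Padi4 KO minus WT): both WT libraries with R848 were above both unstimulated WT libraries, and both Padi4 KO libraries with R848 were below both unstimulated ones. Egr1 was included for this pattern, and the difference was not tested here.

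The response of Btg2 differed by -0.42 on the log2 scale in the interaction test (SE 0.14, adjusted p = 0.0812 with edgeR), with higher levels after R848 in 2 of 2 libraries of each genotype. Over the other settings in which Btg2 was fitted, the adjusted p ranged from 1.70e-05 to 0.338. With 2 libraries a group, outlying libraries cannot be told.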

How the results depend on the processing

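The number of the 9 members called in the WT response was 7 and ranged from 6 to 7 when 1 library was left out. In the Padi4 KO response it was 5; it was 3 with thinned counts and 3 to 5 without 1 library. For the difference of response it was 1; it was 4 with relative log expression factors, 0 with thinned counts, at a false discovery rate below 0.05 and with marker scaling (chosen after seeing the data), and 0 to 4 without 1 library. Without stimulation it was 2, both lower in Padi4 KO. It was 0 with library size alone, with DESeq2 and in a separate fit, and 1 with relative log expression factors. With marker scaling it was 1 as well, but this was Ier5, called higher. After R848 it was 8; it was 4 with marker scaling and 7 to 8 without 1 library. The replicate block gave 7, 5, 1, 2 and 8, the same counts. Deviations of same-numbered libraries correlated between -0.020 and 0.020. This cannot tell whether equal numbers mark pairs, since much of the difference between duplicates was counting noise. Where a setting changed a count, the cause was not tested.

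The following values changed sign. The Ier2 response in Padi4 KO was -0.044 (DESeq2), -0.037 (relative log expression factors), -0.33 (library size alone), -0.013 (filterByExpr), -0.23 (marker scaling), and -0.13 to 0.10 without 1 library. Unstimulated Ier3 was 0.00040 (DESeq2), 0.0050 (relative log expression factors), 0.24 (library size alone), 0.097 (separate fit), 0.57 (marker scaling) and -0.31 to 0.30 without 1 library. Unstimulated Ier5 was 0.12 with library size alone and 0.45, called, with marker scaling; unstimulated Nr4a1 was -0.58 to 0.033 without 1 library (above 0 without the first WT library) and 0.30 with marker scaling; marker scaling also gave 0.27 for Ier2 and 0.28 for Btg2 unstimulated and 0.092 for Ier5 after R848. Of the other single-gene values, 495 kept direction and side of the threshold, 33 lost and 14 gained a call.

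Over all genes, the difference of response was called for 577 genes (423 higher, 154 lower), 125 with DESeq2 (35, 90), 393 with relative log expression factors (160, 233) and 425 with library size alone (255, 170). Without 1 R848 library the split turned: 51 and 246 without the first and 121 and 350 without the second of WT, 67 and 228 without the first and 69 and 199 without the second of Padi4 KO. Without the first unstimulated WT library it was 234 and 98. Library size alone moved the median of all genes to -0.47 and -0.41 for the WT and Padi4 KO responses and to 0.22 and 0.30 for Padi4 KO against WT without stimulation and after R848. After R848 the calls were 1159 higher and 957 lower, 387 and 621 with DESeq2, 990 and 1359 with relative log expression factors and 1870 and 417 with library size alone. Depth limits Egr2, Egr3, Nr4a2 and Nr4a3: below 3 counts a change was not detectable.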

Other observations

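The genes in this paragraph, other than members, were chosen after their values were seen. Apart from Egr1, which was chosen for this pattern, Ddx21, an RNA helicase, and Hspa1b, an inducible heat shock protein, were called higher with R848 in WT and lower in Padi4 KO. After R848, Ddx21 had 44 counts over the 2 WT libraries and 77 over the 2 Padi4 KO libraries, and its CPM in Padi4 KO over that in WT was 0.81. Hspa1b had 4 and 11 counts there, close to the floor of 3. Slc38a6, with 3 and 25 counts, was called lower in WT and higher in Padi4 KO.

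Egr2 and Egr3 were 2 of 6 genes that had no count in the 4 unstimulated libraries but 20 or more in each WT library with R848. The ratio of CPM in Padi4 KO over WT after R848 was 0.055 for Egr2 and 0.032 for Egr3. It was 0.55 for Il10, 0.77 for Il12b, 1.32 for Lacc1 and 0.46 for Ralgds.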
